A study of Mus musculus with 10 samples.

Results

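The population described here is named eL/L/Z, for early leptotene, leptotene and zygotene spermatocytes, the cells in which meiotic prophase begins. Its members are all cells that carry this name in the deposited tables, 5705 of the 45250 cells of the scRNA-seq table and 27355 of the 343866 cells of the scATAC-seq table. The study took nuclei of whole testes from wild-type (WT) C57BL/6J mice at 11, 17 and 25 days postpartum (dpp), and also from adults of 8 weeks that were either Cre/+ or Nfya-CKO. The Nfya-CKO mice carry floxed Nfya, which encodes a subunit of the promoter-binding factor NF-Y, and a Cre allele with ZsGreen1 that is expressed from the Stra8 gene in germ cells, whereas the Cre/+ mice are the control with the Cre allele. RNA and accessible chromatin were read together on the BD Rhapsody system, although only part of the cells of either table are in the other, with 1 library per condition and assay. No difference between conditions therefore has a replicate check, no p-value is given, and every interval covers counting error only. Gene values exist only as 1 pooled value per population and assay, so they have no error, cannot be split by age or genotype, and cannot show whether Nfya was deleted in these cells.

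Leptotene is the stage at which chromosomes condense along protein axes and SPO11 makes the DNA breaks that start recombination. In zygotene the broken ends, coated by single-strand binding proteins and recombinases such as DMC1, find the homologous chromosome, and the synaptonemal complex begins to join the pair. Before these stages lies the preleptotene cell (pL), which carries out the last round of DNA replication and responds to retinoic acid through STRA8 and MEIOSIN. After them the authors placed a population named leptotene, zygotene and early pachytene (L/Z/eP), so the names of the 2 populations overlap in part.

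The upstream sequences of 3 genes of these stages are shown because NF-Y, the factor deleted in the mutant, binds CCAAT, and because STRA8 with MEIOSIN binds CNCCTCAG. They are the 250 bases before a RefSeq transcription start on GRCm38.p6, written 5′ to 3′ on the gene's strand, and capitals mark CCAAT or CNCCTCAG on either strand (ATTGG and CTGAGGNG on the opposite one). Prdm9 (chr17:15564355-15564604, minus strand) encodes the histone methyltransferase that sets the sites of meiotic breaks, Gm960 (chr19:4698669-4698918, minus strand) encodes the TOP6BL partner of SPO11, and Sycp1 (chr3:102936101-102936350, minus strand) encodes the transverse filament of the synaptonemal complex.
Prdm9: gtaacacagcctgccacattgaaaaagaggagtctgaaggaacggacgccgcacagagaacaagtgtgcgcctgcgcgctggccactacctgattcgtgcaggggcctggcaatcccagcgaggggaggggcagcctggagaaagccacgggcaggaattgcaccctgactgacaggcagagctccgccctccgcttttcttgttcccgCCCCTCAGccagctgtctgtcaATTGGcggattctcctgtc
Gm960: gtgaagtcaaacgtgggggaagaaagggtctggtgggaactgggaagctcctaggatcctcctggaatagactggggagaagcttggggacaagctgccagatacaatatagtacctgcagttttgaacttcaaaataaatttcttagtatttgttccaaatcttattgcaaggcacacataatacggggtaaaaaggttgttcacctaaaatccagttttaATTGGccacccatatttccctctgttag
Sycp1: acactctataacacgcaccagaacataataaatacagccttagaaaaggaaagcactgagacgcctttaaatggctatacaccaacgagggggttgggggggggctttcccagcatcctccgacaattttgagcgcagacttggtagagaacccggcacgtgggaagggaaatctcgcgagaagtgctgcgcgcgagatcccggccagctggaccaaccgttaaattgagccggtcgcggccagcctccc
The Prdm9 window shown held both motifs, CNCCTCAG starting at base -41 and CCAAT (as ATTGG) starting at base -19 from the transcription start. Prdm9 has a second RefSeq start, whose window (chr17:15563332-15563581) held neither motif. That of Gm960 held CCAAT alone, at base -28, and that of Sycp1 held neither. The 3 genes are examples. Windows of Hormad1, Dmc1 and Sycp2, not shown, held neither motif. That of Stra8 held 4 CCAAT, that of Rec8 held 3, and those of Stag3 and Smc1b held 1 each. CCAAT stood in 33.8% and CNCCTCAG in 6.42% of the 250-base windows of all 32851 RefSeq promoters. Of 66 measured genes in the lists of the meiotic programme used below, 51 had a RefSeq promoter entry. Of their 59 windows 44.1% held CCAAT and 11.9% (7 windows) held CNCCTCAG. Among the windows of all genes tested below the shares were 35.2% and 7.25%. A match is a description of the letters and not a bound site.

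The eL/L/Z name took very different shares of the libraries. By scRNA-seq it was given to 21.6% of cells at 11 dpp (1353 of 6273; 95% Clopper-Pearson interval, 20.6 to 22.6), to 49.1% at 17 dpp (1839 of 3746; 47.5 to 50.7) and to 13.5% at 25 dpp (2431 of 18039; 13 to 14). In the adult Cre/+ library it was given to 0.617% (74 of 11991; 0.485 to 0.774) and in the Nfya-CKO library to 0.0776% (4 of 5152; 0.0212 to 0.199). A further 4 cells carried no library name. Among cells with at least 1000 genes it came to 8.74%, 37% and 13.1% in the libraries of 11, 17 and 25 dpp, so the order of 11 and 25 dpp turned. The 3 juvenile libraries thus held 5623 of the 5705 cells, and the 4 cells of the library labelled Nfya-CKO were too few to describe.

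By scATAC-seq the order of the libraries was another one. The name was given to 5.15% of cells at 11 dpp (4161 of 80769; 5.0 to 5.31), 4.31% at 17 dpp (3099 of 71823; 4.17 to 4.47) and 16.4% at 25 dpp (15993 of 97798; 16.1 to 16.6). It was given to 5.05% in Cre/+ (3967 of 78556; 4.90 to 5.21) and 0.905% in Nfya-CKO (135 of 14920; 0.759 to 1.07). Among cells with at least 3000 fragments the shares at 11 and 17 dpp became 10.4% and 7.36% and that of Nfya-CKO 0.259%, and with a TSS enrichment of at least 8 that of Cre/+ became 8.02%. The library at 17 dpp, which had the highest share by RNA, had the lowest of the 3 juvenile shares by chromatin. With 1 library per age these orders describe the libraries and not the ages. The 135 cells of the Nfya-CKO library had a median of 1345 fragments and a TSS enrichment of 5.74, against 12698 fragments and 15.7 for the eL/L/Z cells of Cre/+, whose part in the difference in shares was not tested.

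**Figure D1:**
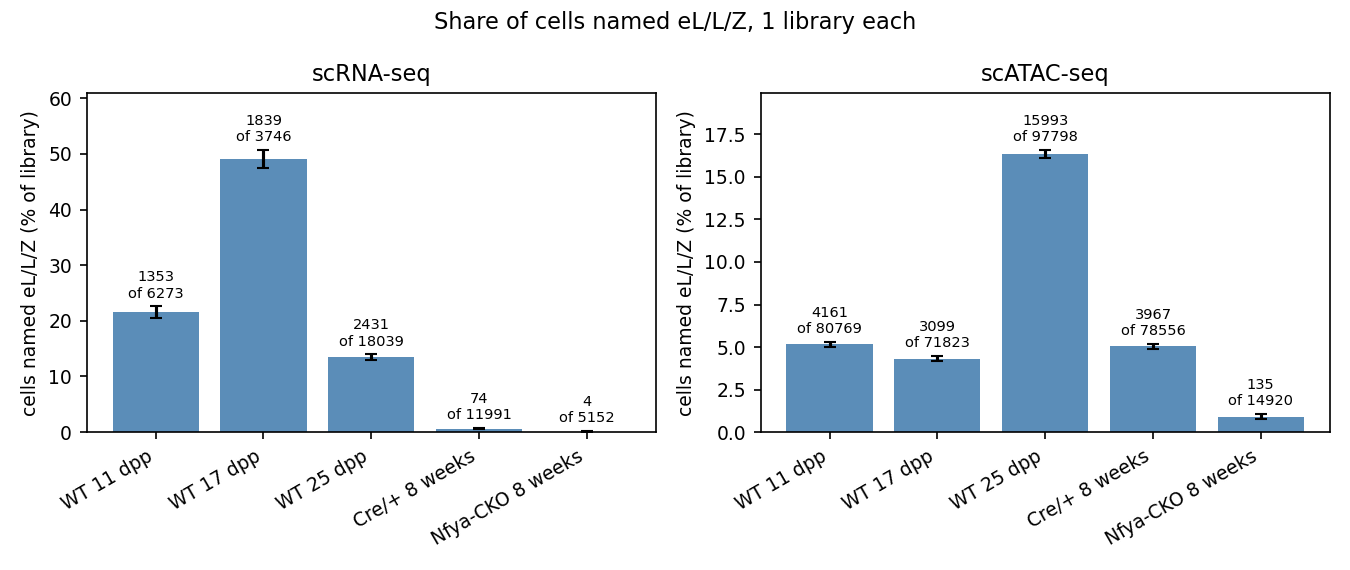
Percent of the cells of each library that were named eL/L/Z by scRNA-seq (left) and by scATAC-seq (right), with bars for the share, error bars for the 95% Clopper-Pearson interval, and the cell counts above. The share is highest at 17 dpp on the left, at 49.1%, and at 25 dpp on the right, at 16.4%.

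The scRNA-seq members came from 2 Seurat clusters of different depth and age. Cluster 6 held 3568 cells, 82.1% of them from 11 and 17 dpp, with a median of 1526 UMIs, 783 genes and 1.09% mitochondrial UMIs. Cluster 10 held 2137 cells, 85.3% of them from 25 dpp, with a median of 3051 UMIs, 1523 genes and 0.456% mitochondrial UMIs. Within 25 dpp the 609 cells of cluster 6 had a median of 809 UMIs and the 1822 cells of cluster 10 a median of 3082. The pooled expression column joins both clusters, so age and cluster cannot be told apart in it. Over all members the median was 2153 UMIs and 1057 genes per cell, against 8161 UMIs and 2800 genes in pL and 1633 UMIs and 893 genes in L/Z/eP. In total the members held 19514634 UMIs, pL cells 16001344 and L/Z/eP cells 16525953. The scATAC-seq members formed 1 cluster, with a median of 8738 fragments and a TSS enrichment of 13.3.

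Many of the RNA members shared their barcode number with a cell of another library. Of the 5705 cells, 1415 (24.8%; 23.7 to 25.9) had a number that also occurred elsewhere, close to the 23.4% of all scRNA-seq cells. The share ran from 3.29% in L/Z/eP and 19.0% in pL to 49.1% in diff. SpG and 59.7% in ES (elongating spermatids) among the germ cell populations, so it was not particular to eL/L/Z, and it was 0.409% in the eL/L/Z cells of the scATAC-seq table. These 1415 cells were shallow, with a median of 720 UMIs against 2782 in the other members. For 1233 of them the deepest cell with the same number had at least 5 times the UMIs. In those pairs the member had a median of 691 UMIs and its partner 17986, and the partner was named undiff. SpG (undifferentiated spermatogonia) in 513 cases, pL in 392, Sertoli in 199 and eL/L/Z in 94. The share was 33% in cluster 6 and 11.1% in cluster 10, and it was highest, at 61.4%, in cluster 6 of 25 dpp. Without all cells of a shared number the eL/L/Z name covered 19.3%, 49.9% and 10.7% of the 11, 17 and 25 dpp libraries, 0.857% of Cre/+ and 0.301% of Nfya-CKO. The part of these cells in the pooled gene values was not tested, since the pooled matrix cannot be remade without them.

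Part of the nuclei carried a name in both assays, which allowed a check of the name, although the authors named scATAC-seq clusters partly from the RNA names, so the 2 are not independent. Of the 5705 RNA members, 3886 (68.1%) were in the scATAC-seq table, and 1538 of these (39.6%; 38.0 to 41.1) were named eL/L/Z there too. Nearly as many, 1482, were named L/Z/eP, while 360 were named undiff. SpG, 305 Sertoli and 186 mP/lP (middle and late pachytene). The share with the same name was 74.5% at 25 dpp (1214 of 1630; 72.3 to 76.6), 21.3% at 11 dpp (194 of 912; 18.7 to 24.1), 8.48% at 17 dpp (110 of 1297; 7.02 to 10.1) and 41.9% in Cre/+ (18 of 43; 27.0 to 57.9). It was 70.9% in cluster 10 and 13.7% in cluster 6.

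The names given by chromatin to the juvenile cells spread widely. At 17 dpp 57.0% of the paired cells were L/Z/eP, 17.1% Sertoli and 10.8% mP/lP. At 11 dpp 40.7% were L/Z/eP and 28.5% undiff. SpG, and in cluster 10 of that age 59.0% were undiff. SpG. When L/Z/eP was counted as the same name, the share was 96.9% at 25 dpp, 62.0% at 11 dpp and 65.5% at 17 dpp. Members that chromatin named eL/L/Z had a median of 2982 UMIs, those named L/Z/eP 4067 and those named Sertoli 1734. The 1819 members missing from the scATAC-seq table had a median of 791 UMIs, and 68.5% of them had a shared barcode number.

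**Figure D2:**
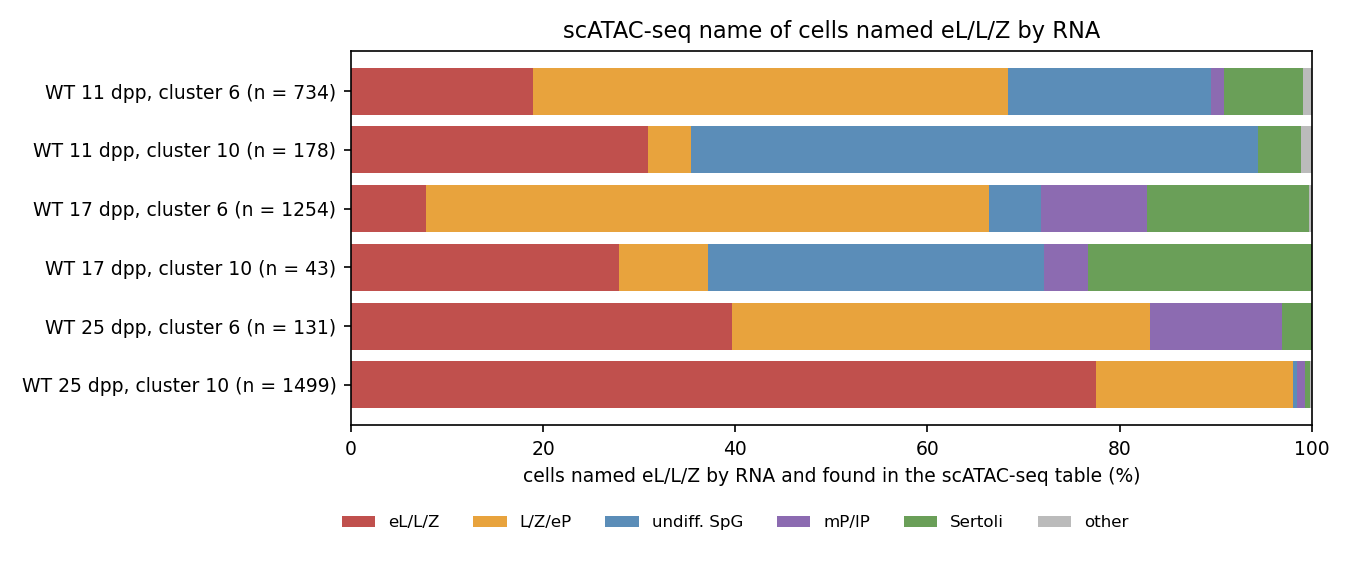
Each bar divides the cells named eL/L/Z by RNA, for 1 juvenile library and 1 RNA cluster, by the name that the same nuclei carry in the scATAC-seq table, in percent. The same name takes 77.5% in cluster 10 at 25 dpp and 7.81% in cluster 6 at 17 dpp, where L/Z/eP takes 58.6%.

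Seen from the chromatin side, 4731 of the 27355 members had an RNA name. Of these 1538 (32.5%) were eL/L/Z, 899 L/Z/eP, 806 pL and 388 differentiating spermatogonia (diff. SpG). The scATAC-seq table has no population named pL. At 11 dpp 68.3% and at 17 dpp 71.7% of the chromatin members with an RNA name were pL, at 25 dpp 38.5% were eL/L/Z and 28.2% L/Z/eP, and in Cre/+ 64.0% were diff. SpG and 3.90% eL/L/Z. The same name therefore covered different sets of nuclei in the 2 assays.

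None of the 4 markers set for this population had its highest value in it, and 3 of them were highest in L/Z/eP and 1 in pL. RNA values are mean UMIs per 10000 UMIs of a cell. Prdm9 (chr17:15543079-15564354) stood at 0.122 in undiff. SpG, 0.618 in diff. SpG, 0.974 in pL, 1.16 in eL/L/Z, 1.22 in L/Z/eP and only 0.224 in mP/lP. Gm960 (chr19:4625734-4698668) stood at 0.591 in pL, 0.920 in eL/L/Z and 0.922 in L/Z/eP, and at 0.254 in mP/lP. Both genes of break formation were thus at about the same level in eL/L/Z and L/Z/eP, and well above the level of mP/lP and of Sertoli cells, where they stood at 0.162 and 0.101.

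Meiob and Stra8 pointed to opposite neighbours. Meiob (chr17:24804289-24839788), a single-strand DNA binding protein needed for recombination, stood at 0.125 in pL, 0.871 in eL/L/Z, 1.59 in L/Z/eP, then 1.27 in mP/lP. Stra8 (chr6:34920163-34939344), the retinoic acid target that starts the meiotic programme, stood at 4.86 in pL, 2.67 in eL/L/Z and 0.964 in L/Z/eP. On unlogged values eL/L/Z lay close to the middle of its neighbours, 50.8% of the way from pL to L/Z/eP for Meiob and 56.3% for Stra8. On the log2 scale (value + 0.1) it did not. Meiob was 2.11 above pL and -0.80 against L/Z/eP, and Stra8 -0.84 against pL and 1.38 above L/Z/eP. With no spread per population, the order of near values such as those of Prdm9 in eL/L/Z and L/Z/eP cannot be settled.

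**Figure D3:**
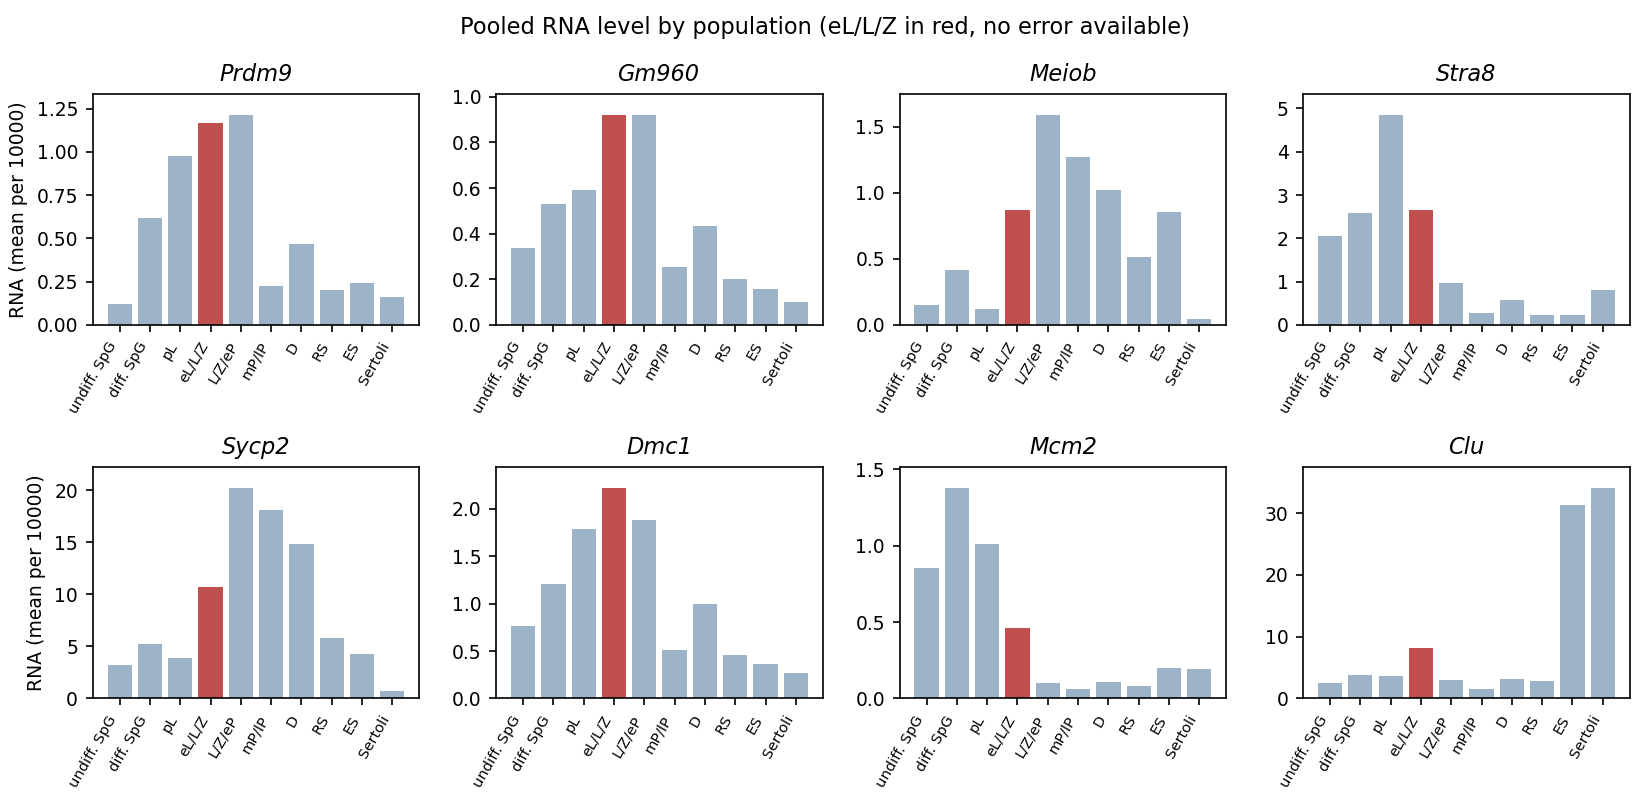
Pooled RNA level (mean UMIs per 10000) of 8 genes in 9 germ cell populations and Sertoli cells, with eL/L/Z in red and no error available. Meiob and Sycp2 step up from pL through eL/L/Z to L/Z/eP, Stra8 and Mcm2 step down, Dmc1 peaks at 2.22 in eL/L/Z, and Clu stands at 8.20 in eL/L/Z and 34.1 in Sertoli cells.

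For most genes the eL/L/Z value lay between those of pL and L/Z/eP. Of 15115 genes with a mean of at least 0.05 over the 11 control populations, 10901 (72.1%) fell in that interval. Across these genes, which are not independent replicates, Pearson's r of the log2 values of eL/L/Z was 0.944 with pL, 0.913 with undiff. SpG, 0.909 with diff. SpG and 0.905 with L/Z/eP. On unlogged values, genes at least 2-fold higher in L/Z/eP than in pL (2027 genes) were at a median of 29.4% of the way (quartiles 22.8 and 39.0). Genes at least 2-fold lower (1604 genes) were at 50.0% (38.1 and 59.8). On this scale a gene at the middle of its log2 change lies below the middle if it rises and above it if it falls. The 2 medians therefore cannot be set against each other and do not show that rising genes lag. Fold changes here are ratios of value + 0.1, which lowers those of weak genes. The number of genes with their highest value in eL/L/Z was 411 (2.72% of genes tested), fewer than in any other of the 11 populations, and 0 were 2-fold above every other one, as against 1 each in diff. SpG, pL and L/Z/eP. Among genes of at least 0.2 in eL/L/Z the largest such ratio was 1.32, for Txlng (1.21 against 0.891 in L/Z/eP).

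The 20 genes most above each of the other 10 control populations included a recombinase and a synaptonemal complex gene, all by small ratios. In 7 of the 20 the value was higher in 1 or both of the columns outside those populations, in SpG Nfya-CKO for 6 and in other somatic cells for 2, as for Col6a2 (0.201 in eL/L/Z and 1.14 in other somatic cells). Dmc1, the meiosis-specific recombinase, stood at 1.79 in pL, 2.22 in eL/L/Z and 1.88 in L/Z/eP. 4930447C04Rik, which encodes SIX6OS1 of the synaptonemal complex, stood at 7.23, 8.54 and 7.11. Pot1b, a telomere-binding protein, stood at 0.840, 1.02 and 0.742, and Primpol, a primase-polymerase, at 0.459, 0.698 and 0.585. Others among them were Gm47283, Per3, Snrnp48, Mms19, Mpv17l, Pbx3, Col6a2, Atp13a1, Arfgap1, D6Wsu163e, Pigu, Oma1, Eda and Taf1d.

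Set against pL, 672 genes (4.45% of those tested) were at least 2-fold higher and 90 (0.595%) at least 2-fold lower in eL/L/Z. Set against L/Z/eP, 606 (4.01%) were higher and 831 (5.5%) lower. These counts are by size alone, and with a pseudocount of 0.5 in place of 0.1 they were 115 and 6 against pL and 66 and 245 against L/Z/eP. The median log2 ratio of all genes was 0.07 against pL and 0.08 against L/Z/eP, and after centring on it the share of higher calls against L/Z/eP was 32.1% in place of 42.2%.

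The axis genes, whose proteins form the chromosome axis and hold sister chromatids together, were higher than in pL for 7 of 8 measured and 2-fold higher for 1, with a median log2 ratio of 0.43, where 57.8% of autosomal genes were higher and 4.45% of all genes 2-fold higher. Sycp2, an axis core protein, stood at 3.85 in pL, 10.7 in eL/L/Z and 20.2 in L/Z/eP. Sycp3, its partner, stood at 1.2, 2.42 and 2.81, and Hormad1, which recruits the break machinery to the axis, at 1.31, 2.02 and 3.56. Against L/Z/eP 0 of the 8 passed 2-fold in either direction, with a median of -0.17. Of all genes 4.01% were 2-fold higher and 5.5% 2-fold lower. Rec8, the meiotic cohesin, was nearly level at 0.298, 0.289 and 0.246, and Smc1b, another meiotic cohesin subunit, stood at 7.17, 7.83 and 8.06.

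The genes of the central region, which joins the paired axes, were above pL for 5 of 6, with a median log2 ratio of 0.28, and 0 passed 2-fold. Of autosomal genes 57.8% were above pL, and of all genes 4.45% were 2-fold above it. Sycp1 stood at 8.68 in pL, 15.3 in eL/L/Z and 25.3 in L/Z/eP. Syce3, a central element protein, stood at 0.311, 0.505 and 1.13. It was the 1 gene of this list at least 2-fold lower than in L/Z/eP, against 5.5% of all genes. Syce2, another central element protein, stood at 1.71, 1.56 and 1.13, so members of the list did not share a direction.

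Break formation genes held both directions. Spo11, whose protein cuts the DNA, stood at 0.334 in diff. SpG, 0.0993 in pL, 0.363 in eL/L/Z, 0.715 in L/Z/eP, then 0.999 in mP/lP. It was the 1 of 11 genes 2-fold above pL, against 4.45% of all genes. Mei1, needed for break formation, stood at 1.18, 1.19 and 0.737, and Mei4 and Rec114, members of the complex that lets SPO11 cut, stood at 0.917, 0.726 and 0.367 and at 0.392, 0.238 and 0.118. Ankrd31, which partners Rec114, stood at 2.76, 4.86 and 6.52. The list median was 0.19 against pL and 0.09 against L/Z/eP.

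Among 15 strand exchange genes, 2 were 2-fold above pL, Meiob and Rad51ap2 (0.132 in pL, 0.522 in eL/L/Z and 0.751 in L/Z/eP), against 4.45% of all genes, and the median log2 ratio was 0.41. Brca2, which helps load DMC1 onto broken DNA, stood at 3.26, 4.55 and 5.18. Among 11 crossover genes 3 were 2-fold above pL, against the same 4.45%, namely Hfm1 (0.718, 1.57 and 2.08), a helicase, Mcmdc2 (0.104, 0.330 and 0.737), an MCM-related protein, and Cntd1 (0.222, 0.866 and 1.64), a cyclin-like protein of crossover maturation. Msh4 and Msh5, which form the clamp on recombination intermediates, stood at 0.430 and 1.04 in eL/L/Z, against 0.211 and 0.520 in pL.

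Genes that attach telomeres to the nuclear envelope had a median of 0.17 against pL and -0.23 against L/Z/eP. Ccdc155, which encodes KASH5 and links telomeres to the motor outside the nucleus, stood at 0.253, 0.831 and 1.56. It was the 1 of 7 genes 2-fold above pL, against 4.45% of all genes, though it stood at 0.799 in diff. SpG. Terb1, a part of the complex that holds telomeres to the envelope, stood at 0.690, 1.23 and 1.93. Lmnb1, the lamin of the nuclear lamina, stood at 1.55, 0.978 and 0.591.

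The 9 genes of meiotic entry were mostly below pL, with 1 above it, 1 at least 2-fold below it and a median of -0.20. Of autosomal genes 57.8% were above pL, and of all genes 0.595% were 2-fold below it. Dmrtb1, a regulator of the switch from mitosis to meiosis, stood at 1.03 in pL, 0.409 in eL/L/Z and 0.363 in L/Z/eP. Dmrt1, which holds off Stra8 in spermatogonia, stood at 4.31, 2.27 and 0.488, and with Stra8 was 2-fold above L/Z/eP, as were 4.01% of all genes. Gm4969, which encodes MEIOSIN (chr7:19099046-19118368), stood at 0.216, 0.285 and 0.294 and did not share the step down of Stra8. Over the 7 meiotic lists together, 8 of 66 genes (12.1%) were 2-fold above pL against 4.45% of all genes, and the 8 became 2 with a pseudocount of 0.5. Against L/Z/eP 2 (3.03%) were 2-fold above and 1 (1.52%) below, where all genes gave 4.01% and 5.5%. Between the 2 neighbours lay 51 (77.3%), near the 72.1% of all genes.

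**Figure D4:**
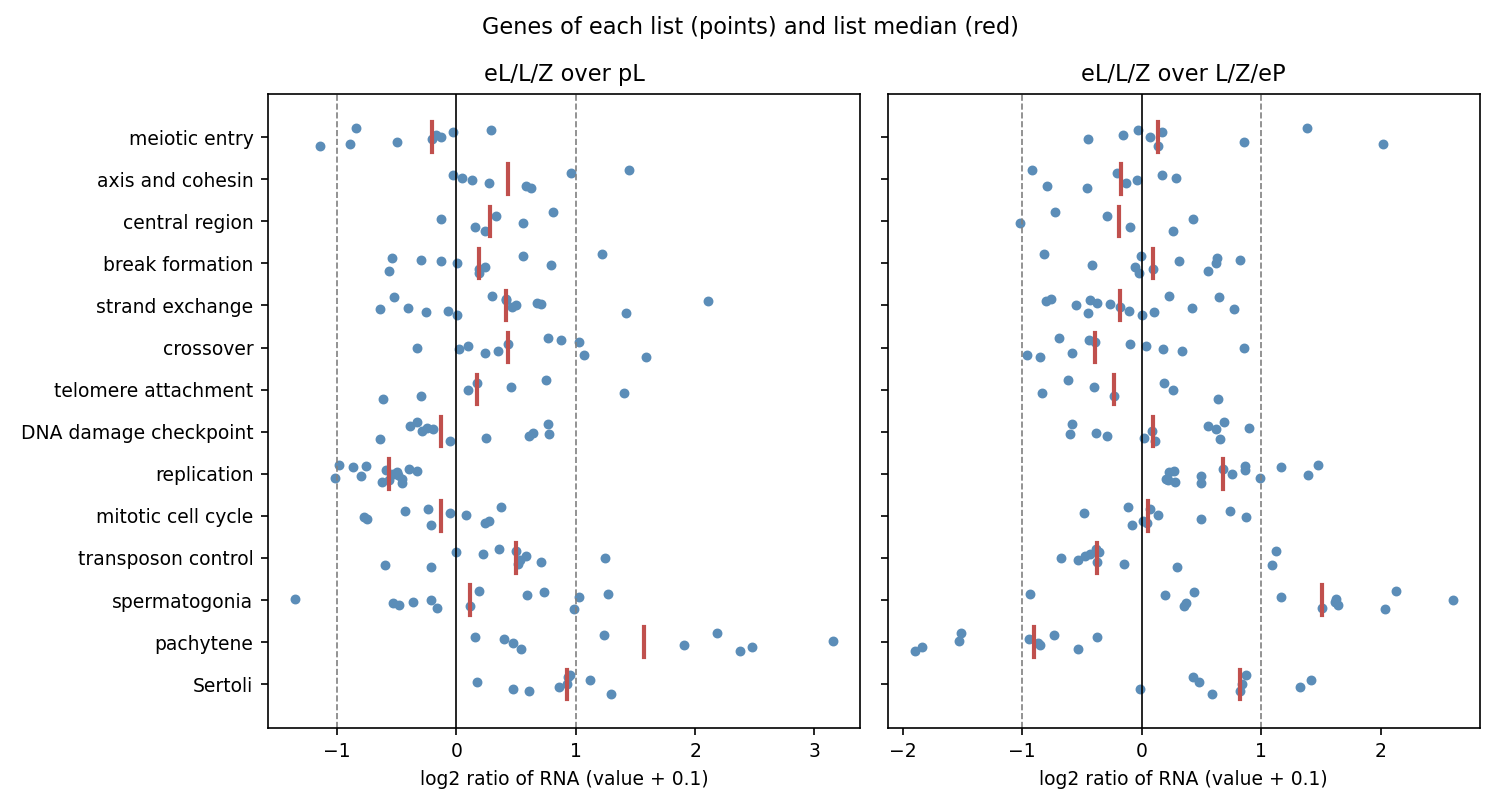
Log2 ratio of RNA (value + 0.1) in eL/L/Z over pL (left) and over L/Z/eP (right), with 1 point per gene, the list median in red and dashed lines at 2-fold. All 15 replication genes lie left of 0 against pL and right of it against L/Z/eP, pachytene genes lie on the opposite sides, and Sertoli genes lie to the right in both panels for 8 of 9 genes.

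Replication genes shared 1 order. All 15 were lower in eL/L/Z than in pL, with a median log2 ratio of -0.57 and 1 at least 2-fold lower, and all 15 were higher than in L/Z/eP, with a median of 0.68 and 3 at least 2-fold higher. Of all genes 0.595% were 2-fold lower than in pL and 4.01% 2-fold higher than in L/Z/eP, and of autosomal genes 57.8% were higher than in pL and 55.9% higher than in L/Z/eP. Mcm2, a subunit of the replicative helicase, stood at 1.01, 0.461 and 0.101, Rrm2, which makes deoxynucleotides, at 0.987, 0.438 and 0.170, and Cdt1, a licensing factor, at 0.482, 0.314 and 0.0583. CCAAT stood in 76.9% of the 13 RefSeq promoter windows of 12 replication genes, against 35.2% of the windows of all genes tested. For 6 pachytene genes it stood in 57.1% of 7 windows. The part of CCAAT in the order of replication RNA was not tested. Genes of the mitotic cell cycle did not show this order, with medians of -0.13 and 0.05, and the latter turned to -0.030 when centred on all genes. Mki67, a mark of cycling cells, stood at 4.24, 5.52 and 5.99, and Aurkb, the kinase of mitotic chromosome segregation, at 0.440, 0.216 and 0.0725.

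The listed genes of later stages were higher than in pL, but most were not higher than in the column named diff. SpG. That column held much RNA of spermatid genes, and 49.1% of its cells had a shared barcode number. It is therefore not taken here as the level of the stage before pL. No share of all genes above diff. SpG is given, so these counts do not set the lists apart from other genes. Of 10 pachytene genes, 6 were 2-fold above pL (4.45% of all genes), with a median log2 ratio of 1.57, and 4 were 2-fold below L/Z/eP (5.5% of all genes), while 2 were above diff. SpG at all. Ldhc, the testis lactate dehydrogenase, stood at 3.44 in diff. SpG, 0.113 in pL, 1.80 in eL/L/Z, 5.4 in L/Z/eP, then 11.7 in mP/lP. Piwil1, the PIWI protein of pachytene, stood at 1.76, 0.282, 1.64, 4.85 and 11.4, and Mybl1, the factor that switches on pachytene genes, at 0.507, 0.287, 0.811, 1.42 and 1.51. The sum of 9 spermatid genes was 1.06 in undiff. SpG, 13.1 in diff. SpG, 0.114 in pL, 0.859 in eL/L/Z and 2.35 in L/Z/eP. All 9 were above pL, and all 9 were below L/Z/eP and below diff. SpG. Of autosomal genes 57.8% were above pL and 55.9% above L/Z/eP. The part of RNA from later cells in these values, those of diff. SpG included, was not tested.

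Apart from Ldhc, Gm2762 and Ankrd36, the 10 largest ratios over pL were at piRNA loci or genes that overlap them. These loci, named by chromosome band, are the long transcripts from which pachytene piRNAs are cut. Of 100 such loci 70 were 2-fold above pL, against 4.45% of all genes, and 80 were 2-fold below L/Z/eP, against 5.5%, with median log2 ratios of 1.70 and -1.59. The locus 10-qB4-6488 stood at 0.274 in pL, 3.15 in eL/L/Z, 14.8 in L/Z/eP, then 31.3 in mP/lP. The locus 2-qF1-2536 stood at 0.2, 2.54, 10.3 and 23.1, and 17-qC-935 had the same values as the overlapping gene 1700008K24Rik, at 0.112, 1.64, 4.39 and 10.6, so reads of overlapping features cannot be told apart. In diff. SpG these loci stood at 3.10, 3.01 and 2.03. Of the 100, 42 were higher in eL/L/Z than there, a count with no share of all genes beside it. On unlogged values, loci 2-fold higher in L/Z/eP than in pL (92) were at a median of 23.3% of the way in eL/L/Z. The log2 medians above, 1.70 and -1.59, were near equal in size.

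The 10 largest ratios below pL were all genes of 1 cluster, the gamma protocadherins, which encode cell adhesion proteins and share their last exons. Pcdhga8 stood at 0.399 in pL, 0.0114 in eL/L/Z, 0.00043 in L/Z/eP and 2.57 in Sertoli cells. The members had nearly the same values, so they are not separate measurements. The 10 genes furthest below L/Z/eP included 3-qA2-617 (1.21 against 6.96), Cyp19a1, the aromatase gene (0.802 against 4.32), and Spag16, an axoneme gene (1.66 against 8.46), besides 4932414N04Rik, Gm41335, 4930430A15Rik, 4933409G03Rik, 9-qA5.3-24188, Ccdc7a and Magi2.

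The genes furthest above L/Z/eP included several known from spermatogonia. Sall4, a stem and progenitor cell factor, stood at 4.88 in undiff. SpG, 1.09 in pL, 0.925 in eL/L/Z and 0.0689 in L/Z/eP. Zbtb16, which keeps spermatogonial stem cells, stood at 8.74, 1.14, 1.32 and 0.226. Ccnd2, a cyclin of cycling spermatogonia, stood at 10.8, 1.24, 1.82 and 0.309, Ccnd1 stood at 1.48, 4.39, 1.27 and 0.198, and the X-linked Sox3 at 6.17, 3.31, 1.51 and 0.253. The remaining ones were Bahcc1, Fkbp9, Trim71 with the overlapping pi-Trim71.1, and Mpped2. Of 13 spermatogonial genes 8 were 2-fold above L/Z/eP, against 4.01% of all genes, with a median of 1.51, and 6 were above both neighbours, as were 21.1% of all genes. Kit, the receptor of differentiating spermatogonia, stood at 2.09 in pL, 0.756 in eL/L/Z and 0.178 in L/Z/eP and was the 1 gene of the list 2-fold below pL. Another 2 were 2-fold above pL (15.4%, against 4.45% of all genes), Ret and Id4, a regulator of stem cells that stood at 0.105 in pL and 0.392 in eL/L/Z.

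A set of genes was above both neighbours rather than between them. At 1.5-fold, 169 genes (1.12%) were above both and 0 were below both. Of the 169, 109 (64.5%) had their highest other value in Sertoli cells, against 12.9% of all genes tested, and 32 in undiff. SpG. At 2-fold 16 remained. Inha, an inhibin subunit made by Sertoli cells, stood at 1.56 in pL, 3.94 in eL/L/Z, 1.68 in L/Z/eP and 16.8 in Sertoli cells, and Sparc, a secreted matrix protein, at 4.63, 10.6, 5.15 and 58.1. Ret, a GDNF receptor subunit of stem cells, stood at 0.0607, 0.227, 0.0455 and, in undiff. SpG, 2.30. Clu, Cmah, Defb36, Foxf1, Gstm2, Spock2, Cst9, Vim, Gm2a, Ccdc141, Zfp462, Defb19 and Npr1 were the others.

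Of 9 Sertoli markers, 9 were above pL and 8 above L/Z/eP, with median log2 ratios of 0.93 and 0.83, where 57.8% and 55.9% of autosomal genes were above these neighbours. The 8 were above both, as were 21.1% of all genes. Their summed level was 7.83 in pL, 16.7 in eL/L/Z, 7.55 in L/Z/eP and 84.9 in Sertoli cells. Sox9, the factor that defines Sertoli cells, stood at 0.771, 1.59, 0.824 and 10.7, Clu at 3.72, 8.20, 3.01 and 34.1, and none of the 9 was at 0 in eL/L/Z. The list does not mark Sertoli cells alone, since its sum was 119 in the column of other somatic cells, where Clu stood at 91.5 and Sox9 at 3.54. Markers of Leydig cells (summed 0.348 over 4 genes), of peritubular and endothelial cells (0.532 over 5) and of macrophages (0.0235 for the 1 gene that passed the filter) were low in eL/L/Z. All 5 peritubular and endothelial genes were above pL and 4 were above both neighbours, with a sum of 0.205 in pL and 0.354 in L/Z/eP. The part of Sertoli RNA in the eL/L/Z values was not tested, and 305 of the 3886 paired members were Sertoli by chromatin.

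The X-linked share of RNA in eL/L/Z was closer to that of pL than to that of L/Z/eP. X-linked genes gave 2.51% of the nuclear RNA in pL, 2.30% in eL/L/Z, 1.57% in L/Z/eP, then 0.572% in mP/lP, the stage at which the sex chromosomes are silenced. The share in eL/L/Z was 0.914 times that of pL and 1.46 times that of L/Z/eP. Of 501 X-linked genes tested, 395 (78.8%) were above L/Z/eP, against 55.9% of 14395 autosomal genes, with 28 (5.59%) 2-fold higher and 1 2-fold lower, whereas of the autosomal genes 560 (3.89%) were higher and 812 (5.64%) lower. Against pL, 252 X-linked genes were higher (50.3%, against 57.8% of autosomal genes) and 249 lower. Tex11, an X-linked gene of recombination, stood at 2.07 in pL, 1.62 in eL/L/Z, 0.850 in L/Z/eP, then 0.268 in mP/lP. Measured over genes and not by sum, the X-linked median was 1.25 times the autosomal one against L/Z/eP. Sertoli cells had an X-linked share of 3.38%, and their part in the eL/L/Z share was not tested. In scATAC-seq the X-linked share ran the other way, at 1.37% in pL, 1.5% in eL/L/Z, 1.63% in L/Z/eP, then 2.01% in mP/lP.

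**Figure D5:**
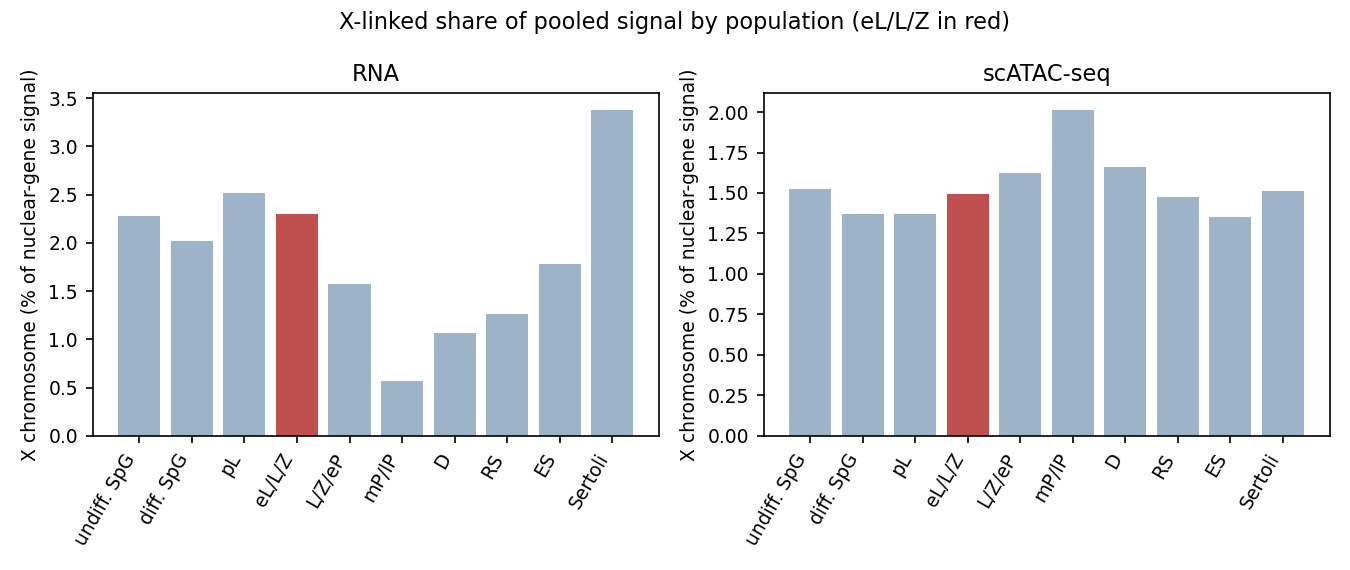
Share of X-linked genes, in percent of the pooled signal of nuclear genes, for RNA (left) and scATAC-seq (right) in 9 germ cell populations and Sertoli cells, with eL/L/Z in red. The RNA share is 2.30% in eL/L/Z and 0.572% in mP/lP, while the scATAC-seq share is 1.5% and 2.01%.

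Gene accessibility was read by another scale and threshold, so its counts cannot be set against those of RNA. Values are scATAC-seq signal scaled to 1000000 over nuclear genes, and the sources used here do not say which region the deposited gene values cover. The study's methods define promoter accessibility as mean coverage close to the transcription start, and whether the deposited values are that measure is not stated. The pooled columns carry the RNA population names, including pL and diff. SpG, which are not names in the scATAC-seq table. Which nuclei stand behind the eL/L/Z column is not stated. If they were grouped by RNA name, they are at most the 3886 paired members and not the 27355 members by chromatin. Of 17786 genes with a mean of at least 10, 72 (0.405%) were 2-fold higher and 2 (0.0112%) 2-fold lower than in pL, and 19 (0.107%) were higher and 348 (1.96%) lower than in L/Z/eP, as ratios of value + 1. With a pseudocount of 10 the counts were 1 and 0, and 0 and 46. Mitochondrial genes, left out of this scale, made up 31.2% of the signal in pL, 45.4% in eL/L/Z and 63.8% in L/Z/eP.

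The markers were in the same order in both assays where they differed most. Stra8 had an accessibility of 99.9 in pL, 79.4 in eL/L/Z and 62.4 in L/Z/eP, and Meiob one of 43.1, 68.1 and 85.4. Prdm9 stood at 82.2, 87.7 and 85.4 and Gm960 at 53.1, 54.5 and 46.7. Sycp2 stood at 90.9, 130 and 172, Sall4 at 48.2, 31.8 and 19.0, and Kit at 68.5, 49.3 and 34.0. Of 614 genes 2-fold higher in RNA than in pL and measured in both assays, 74.3% were higher in accessibility, against 55.3% of all 13269. Of 81 that were lower in RNA, 16.0% were higher in accessibility. Against L/Z/eP the shares were 84.6% of 564 genes higher in RNA and 13.4% of 714 lower in RNA, against 52.4% of all. Both assays were read in part from the same nuclei, and the accessibility column may rest on RNA members alone, so these are not independent samples.

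The piRNA loci also differed in accessibility. Of 97 measured, 27 were 2-fold more accessible than in pL (0.405% of all genes) and 56 were 2-fold less accessible than in L/Z/eP (1.96% of all genes), with median log2 ratios of 0.64 and -1.08. The locus 12-qE-7089 stood at 1.49 in pL, 8.90 in eL/L/Z and 29.9 in L/Z/eP, beside RNA values of 0.0938, 1.52 and 6.95. Replication genes, whose RNA was lower than in pL, had a median log2 ratio in accessibility of 0.03 against pL and 0.08 against L/Z/eP. The axis genes had one of 0.38 and -0.12, and the Sertoli genes -0.08 and 0.22.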

How the data were processed

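scRNA-seq and scATAC-seq, read in part from the same nuclei, were analysed from 10 libraries, 5 per assay. Per the labels and methods, the authors aligned reads to mm10 (STAR 2.7.10b, BWA 0.7.12) and filtered and named cells with Seurat 5.2.1 and ArchR 1.0.3, after removing doublets with DoubletFinder (RNA) and ArchR. The authors deposited UMI and fragment counts per cell, the percent of mitochondrial UMIs, the TSS enrichment ratio and the fraction of reads in promoters. The authors deposited gene values as the natural log of 1 plus a pooled mean that sums to 10000 per population, which was read from the values. RNA was returned to that scale and scATAC-seq scaled to 1000000 over nuclear genes, in Python 3.11.15 (pandas 2.3.3, numpy 2.4.6, scipy 1.17.1). Genes were called at 2-fold after adding 0.1 (RNA) or 1 (scATAC-seq). Only the RNA calls were tested on simulated data, with counting noise alone and changed genes with a mean of at least 0.2. Weaker changed genes, mixed cells and the scATAC-seq calls were not covered. Shares of cells carry exact Clopper-Pearson 95% intervals. Alternatives were stricter filters on cells, other pseudocounts, filters and centring. 12 deposited columns were not used.

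Members and gene lists were chosen with earlier results of these data known. Genes were named as markers, as list examples, as the 20 most above every other control population (at least 0.2 in eL/L/Z), as the 10 most above and below each neighbour (mean of at least 0.2), or as 2-fold above both neighbours, the last added after values were seen. Genes were placed by GENCODE M21 (GRCm38). Some genes that met these rules are not reported here.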

Additional observations from a re-analysis of the deposited data

How the results depend on the processing

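No paired analysis was possible because each condition has 1 library per assay and no test was run. The cause of each move below was not tested. With at least 1000 genes per cell the eL/L/Z share by scRNA-seq was 8.74% (11 dpp), 37% (17 dpp), 13.1% (25 dpp), 0.483% (Cre/+) and 0% (Nfya-CKO, 0 of 2641 cells, which allows a share of up to 0.114% at 3 counts and 0.140% by the Clopper-Pearson interval). With under 2% mitochondrial UMIs it was 20.3%, 46.2% and 14% at 11, 17 and 25 dpp. Without shared barcode numbers, an alternative chosen after seeing the data, it was 19.3% (11 dpp), 49.9% (17 dpp), 10.7% (25 dpp), 0.857% (Cre/+) and 0.301% (Nfya-CKO). With at least 3000 fragments the scATAC-seq share was 10.4%, 7.36% and 21% at 11, 17 and 25 dpp, 7.18% (Cre/+) and 0.259% (Nfya-CKO), and with a TSS enrichment of at least 8 it was 5.39% at 11 dpp and 8.02% in Cre/+. The share of paired cells with the same name was 41.3% without shared barcode numbers, and 77.7% with L/Z/eP counted (62% at 11 dpp, 65.5% at 17 dpp and 96.9% at 25 dpp).

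The counts of genes rest on the pseudocount. At 0.01 the counts against pL were 2542 higher and 230 lower, and against L/Z/eP 1729 and 2076. At 0.5 they were 115 and 6, and 66 and 245. Over the meiotic lists 0.5 left 2 higher and 0 lower than in pL and 0 lower than in L/Z/eP, where 0.01 gave 2. In scATAC-seq a pseudocount of 10 gave 1 and 0 against pL and 0 and 46 against L/Z/eP, where centring gave 12 higher. Among germ cells alone 708 genes were highest in eL/L/Z. The X-linked ratio to L/Z/eP was 1.25 as a median over genes. The mitotic cell cycle median against L/Z/eP turned to -0.030 when centred.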

Other observations

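Genes of transposon control and of the damage checkpoint have not been described above. Of 11 transposon control genes, 8 were higher in eL/L/Z than in pL (57.8% of autosomal genes), 1 of them 2-fold (4.45% of all genes). Against L/Z/eP 8 were lower, 0 of them 2-fold (5.5% of all genes), while 2 (18.2%) were 2-fold higher (4.01% of all genes). The median log2 ratios were 0.50 against pL and -0.37 against L/Z/eP. Tdrd5, a Tudor protein of the germ granule, stood at 0.262 UMIs per 10000 in pL, 0.756 in eL/L/Z, 1.26 in L/Z/eP, then 2.55 in mP/lP, and Mov10l1, the helicase of piRNA production, at 1.77, 2.95, 3.85 and 3.39. Piwil4, the nuclear PIWI protein of early germ cells, stood at 0.867 in undiff. SpG, 0.0826 in pL, 0.158 in eL/L/Z and 0.0186 in L/Z/eP.

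None of 12 damage checkpoint genes passed 2-fold in either direction against pL or L/Z/eP, where at most 5.5% of all genes did so in any 1 direction, and 11 lay between the 2, as did 72.1% of all genes. The 2 apical kinases of the pathway differed in order. Atm stood at 2.45 in pL, 1.93 in eL/L/Z, 1.16 in L/Z/eP, then 0.338 in mP/lP, whereas Atr stood at 3.03, 5.24, 7.92 and 7.61. Mdc1, which spreads the damage mark along chromatin, stood at 1.04, 1.85, 2.85 and 3.17.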
